A study of Mus musculus with 4 samples.

Results

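The insulin-like growth factor (IGF) axis was described in primary mouse Leydig cells through 10 genes, taken by matching the Ensembl identifiers of the deposited read-count table to the GRCm38 annotation: Igf1, Igf1r, Igf2r, Igfbp2 to Igfbp7 and Pappa. All 10 were found among the 55812 counted features, and all 10 passed the low-count filter that left 14701 features for the test. Leydig cells are the cells between the seminiferous tubules of the testis that make testosterone. The cells came from mice labelled 6 months old, and received either Trps1 siRNA, which targets the mRNA of the GATA-type repressor Trps1, or Negative siRNA, which is the control. Each group held 2 samples, called samples 1 and 2. The strain, the siRNA dose and the time after transfection are not named in the labels. Nothing there says that samples 1 and 2 were separate cultures or separate animals either, and every p-value here therefore reflects variation between 2 samples a group that may be technical.

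IGF1 and IGF2 are secreted peptides related to insulin. They act through the tyrosine kinase receptor encoded by Igf1r, whereas the receptor encoded by Igf2r takes up IGF2 for degradation and also carries lysosomal enzymes. Outside cells most IGF is held by IGF-binding proteins (IGFBPs), which keep it from the receptor until proteases cut them. The protease pappalysin (Pappa) cuts IGFBP4 and is itself blocked by the stanniocalcins Stc1 and Stc2. In the testis, IGF1 is known to support the maturation of Leydig cells and their steroid output.

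The libraries held 17844125 and 21597187 counted reads with Trps1 siRNA and 20116799 and 25852898 with Negative siRNA. Trps1 itself had 23.5 and 30.1 CPM (counts per 1000000 reads, on library totals scaled by TMM) with Trps1 siRNA, against 38.1 and 42.2 CPM with Negative siRNA, so the targeted mRNA was lowered in part (log2 fold change -0.58 ± 0.10, standard error; edgeR adjusted p = 0.000351). All 7 defining Leydig markers were detected, with 5 of the 7 higher. Their summed level was 5893 and 6339 CPM with Trps1 siRNA, against 3957 and 4241 CPM with Negative siRNA. The other 2, Star and Insl3, had log2 fold changes of -0.09 and 0.02, not past the test. The 18 macrophage markers summed to 2982 and 2373 CPM with Trps1 siRNA, against 3519 and 3474 CPM with Negative siRNA, and 10 of them fell. The 10 fibroblast and stromal markers summed to 5422 and 5373 CPM with Trps1 siRNA, against 5458 and 5450 CPM with Negative siRNA, with 1 higher and 2 lower. The 11 endothelial markers together stayed at 46.6 to 57.4 CPM in any library, edgeR, DESeq2 and voom called 0 of them, and 1 had an unadjusted p under 0.05. Of 5 tested smooth muscle markers 1 rose and 2 fell. The 8 Sertoli markers summed to 44.1 and 42.7 CPM with Trps1 siRNA, against 37.7 and 40.2 CPM with Negative siRNA. Of 4 tested, edgeR called Gata1 higher, while DESeq2 called 0. Gata1 had 22.0 and 21.8 CPM with Trps1 siRNA, against 15.6 and 17.3 CPM with Negative siRNA. Sox9, Wt1 and Cldn11 had log2 fold changes of 0.24, -0.0054 and -0.17, not past the test. Fshr had 0 reads in all 4 libraries. The 8 germ cell markers summed to 37.02 and 48.5 CPM with Trps1 siRNA, against 35.7 and 32.7 CPM with Negative siRNA. Of 2 tested, edgeR called Zbtb16 higher, while DESeq2 and voom called 0. Tnp1 had 0 reads in all 4 libraries. In such bulk RNA, fewer cells of a type and less RNA per cell cannot be told apart.

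With Trps1 siRNA, 4 of the 10 genes fell, all of them binding proteins: Igfbp4 to 45.4% of its control level, Igfbp3 to 80.9%, Igfbp6 to 84.3% and Igfbp2 to 85.2%. The ligand Igf1, both receptors, Igfbp5, Igfbp7 and Pappa did not pass the test (Benjamini-Hochberg adjusted p under 0.05 in edgeR's quasi-likelihood test over all 14701 features). With offsets for GC content and exon length 2 of the 4 calls remained, and without sample 1 of Negative siRNA only 1, that of Igfbp4. Over all features tested, 11.2% were called, 6% as lower and 5.24% as higher with Trps1 siRNA. Among the 4231 features with a mean of at least 50 CPM, a level chosen after the data were seen and reached by 8 of the 10 genes, 11.8% were called lower and 9.03% higher. For the count of 0 genes called higher, edgeR gave 3 at an unadjusted p under 0.05, and DESeq2 and voom also called 0. The median log2 fold change was -0.012 over the 10 genes and -0.24 over the 6 IGFBPs, beside 0.0024 over all features tested. In 8 of the 10 genes the 2 groups did not overlap, as in 52.2% of all features tested (26.1% lower without overlap). The authors' deposited table lists 4 of the 10, the same genes, with log2 fold changes of -1.14 for Igfbp4, -0.31 for Igfbp3, -0.25 for Igfbp6 and -0.23 for Igfbp2.

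**Figure D1:**
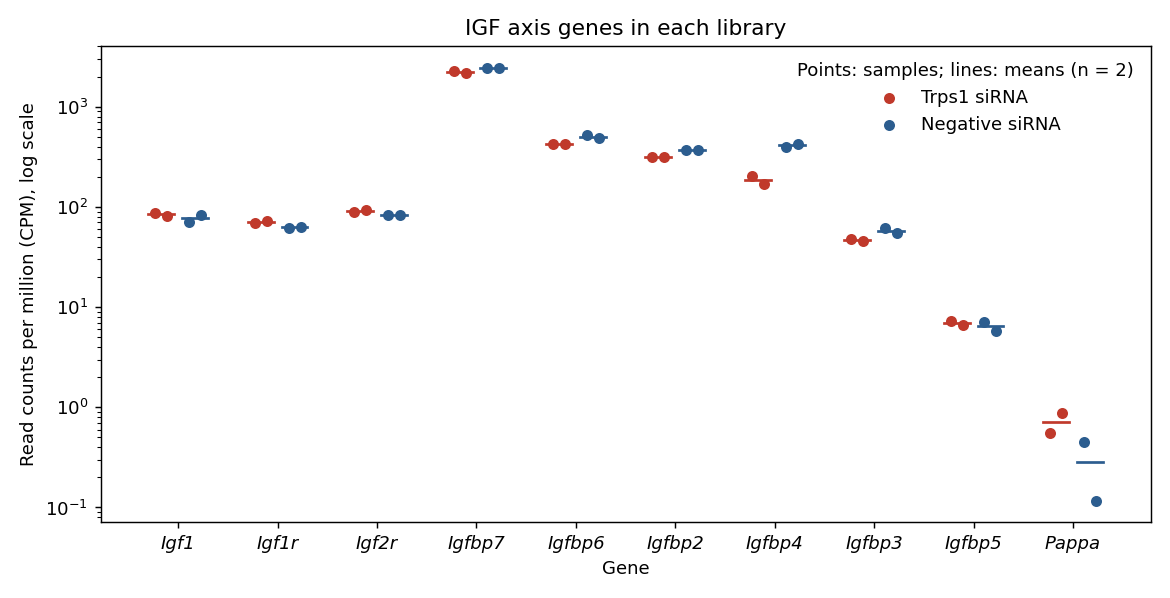
CPM of the 10 IGF axis genes in each library, on a log scale, with Trps1 siRNA (red) left of Negative siRNA (blue); points are samples and lines are group means (n = 2 each). The groups lie farthest apart for Igfbp4, at 171 and 204 CPM with Trps1 siRNA against 399 and 425 CPM with Negative siRNA, apart from Pappa, which rests on 3 to 19 reads.

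Levels of different genes were compared per exon length, as transcripts per 1000000 (TPM). Igfbp7 was the most abundant of the 10 genes, at 5736 ± 103 TPM with Trps1 siRNA and 6284 ± 177 TPM with Negative siRNA (SD, n = 2 each). Igfbp6 followed, at 1193 ± 1.94 TPM with Trps1 siRNA and 1405 ± 101 TPM with Negative siRNA. Igfbp2 had 531 ± 5.69 TPM with Trps1 siRNA and 620 ± 9.86 TPM with Negative siRNA, and Igfbp4 had 132 ± 15.3 TPM with Trps1 siRNA and 289 ± 7.62 TPM with Negative siRNA (SD, n = 2 each). Igfbp3 lay at 45.9 to 61.4 TPM over the 4 libraries, Igf2r at 27.3 to 31.8, Igf1 at 22.6 to 27.5, Igf1r at 11.5 to 13.7, Igfbp5 at 2.95 to 3.77 and Pappa at 0.0326 to 0.249 TPM. The binding proteins other than Igfbp5 were thus above Igf1, Igf1r and Igf2r in every library. In this order of levels, all neighbours had separate ranges over the 4 libraries except Igf2r and Igf1. That pair changed places, at 23.4 and 27.3 TPM over the 4 libraries, when the longest transcript was used as the length. The genes for Igfbp2 and Igfbp5 lie tail to tail on chromosome 1 with 5457 bases between them, and yet had levels far apart.

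Igf1 encodes the ligand IGF1 (ENSMUSG00000020053, chromosome 10, 87858265 to 87937042, plus strand, GRCm38). It had 87.5 and 81.1 CPM with Trps1 siRNA, against 71.0 and 84.0 CPM with Negative siRNA. The groups overlapped, since sample 2 of Negative siRNA lay between both Trps1 siRNA samples. The log2 fold change was 0.12 ± 0.07 (standard error; edgeR adjusted p = 0.360). Leaving out sample 1 of Negative siRNA gave 0.0019, leaving out its sample 2 gave 0.24, and the fit gave 0.034 with offsets for GC content and exon length, in no case past the test. Macrophages are known to make IGF1 as well, and 10 of 18 macrophage markers fell in these libraries, while Igf1 did not pass the test; the part of these cells in its level was not tested. The other ligand gene, Igf2, which is silenced in most adult tissues of the mouse, had 6 and 7 reads with Trps1 siRNA and 0 in both Negative siRNA libraries, where 0 reads allow up to 0.149 and 0.117 CPM (3 reads, counting error only). Igf2 shares 62.8% of its exon bases with the annotated gene Gm49394 on the same strand and did not pass the low-count filter, so these few reads are uncertain and no fold is given.

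Igf1r encodes the receptor tyrosine kinase for both IGFs (ENSMUSG00000005533, chromosome 7, 67952827 to 68233668, plus strand). It had 69.5 and 73.1 CPM with Trps1 siRNA, against 61.4 and 63.8 CPM with Negative siRNA. Both Trps1 siRNA samples lay above both controls, by 1.09-fold to 1.19-fold between single samples. The log2 fold change was 0.19 ± 0.07 and did not pass the test (standard error; edgeR adjusted p = 0.0802). Igf2r (ENSMUSG00000023830, chromosome 17, 12682406 to 12769664, read from the minus strand) showed 89.6 and 94.1 CPM with Trps1 siRNA, against 83.2 and 82.8 CPM with Negative siRNA. Its groups did not overlap either, and its log2 fold change of 0.15 ± 0.06 did not pass the test (standard error; edgeR adjusted p = 0.139). The insulin receptor gene Insr, whose product can pair with that of Igf1r, had 57.5 and 62.4 CPM with Trps1 siRNA, against 50.4 and 58.6 CPM with Negative siRNA, and its groups overlapped. Insr had a log2 fold change of 0.14 ± 0.08, not past the test.

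Igfbp4 showed the largest fall of the axis (ENSMUSG00000017493, chromosome 11, 99041244 to 99054392, plus strand). IGFBP4 is known as an inhibitor of IGF action that releases its ligand when pappalysin cuts it. It had 204 and 171 CPM with Trps1 siRNA, against 399 and 425 CPM with Negative siRNA, from 3635 and 3713 reads with Trps1 siRNA and 8016 and 10874 reads with Negative siRNA. Each Trps1 siRNA sample lay at 40.2% to 51.1% of each control sample. The log2 fold change was -1.14 ± 0.07 (standard error; edgeR adjusted p = 1.67e-10), which ranked 12 by p among the 14701 features and 56 counted from the lowest log2 fold change, and it stayed between -1.27 and -1.02 in all 13 other fits. Sample 2 of Trps1 siRNA, with the lower Igfbp4 level, had the lower macrophage sum (2373 against 2982 CPM). It also had the higher Trps1 level (30.1 against 23.5 CPM). Between the controls, sample 2 had the higher Igfbp4 level and the lower macrophage sum (3474 against 3519 CPM). The part of cell makeup in the Igfbp4 values was not tested.

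A small interfering RNA can, like a microRNA, also lower mRNAs that pair with its seed through a short match in the 3' UTR, which is why matches were listed beside these results. The sources used here give the sequence of neither siRNA. The words searched, on the mRNA strand, were GAGTTGA as well as AGTTGAA, the word GAGTTGAA that holds both, and finally CGGAGAA. They came from earlier results on these same data, so the shares are a description. Of 1313 tested genes whose longest 3' UTR held GAGTTGA, 13.9% were called lower and 3.27% higher with Trps1 siRNA, against 5.79% and 5.78% of 11698 genes without it. For GAGTTGAA the shares were 18.1% lower and 3.48% higher among 431 genes, against 6.22% and 5.60% of 12580. For AGTTGAA they were 10.7% lower and 4.17% higher among 1630 genes, against 6.02% and 5.72% of 11381. For CGGAGAA they were 4.44% lower and 14.5% higher among 428 genes, against 6.68% and 5.22% of 12583. Genes with GAGTTGAA are counted under both shorter words too, and genes with and without a word were not matched for 3' UTR length.

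Among the IGF axis genes, GAGTTGA was present in the 3' UTRs of Igfbp4 and Pappa, and AGTTGAA in those of Igf1 and Igfbp5. Of these 4 genes only Igfbp4 fell, and Pappa, Igf1 and Igfbp5 had log2 fold changes of 1.43, 0.12 and 0.12, not past the test. The 3' UTRs of the other 6 axis genes held none of these words, among them those of Igfbp2, Igfbp3 and Igfbp6, which fell. The match of Igfbp4, the gene with the largest fall, is given 5′ to 3′ on the mRNA strand with T for U and the word in capitals, from the GENCODE M21 annotation and transcripts. The coordinates (GRCm38) are those of the capitals.
Igfbp4, exon 4, chr11:99051641-99051647, plus strand: tggggttgtaGAGTTGAcctggcttgg
It begins 62 bases after the stop codon in a 3' UTR of 2813 bases. The part of this match in the fall of Igfbp4 was not tested.

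Igfbp2, Igfbp3 and Igfbp6 fell by less. Igfbp3 (ENSMUSG00000020427, chromosome 11, 7206086 to 7213923, minus strand), a main IGF carrier of the blood, had 48.1 and 45.7 CPM with Trps1 siRNA, against 61.1 and 54.9 CPM with Negative siRNA. Its log2 fold change was -0.31 ± 0.08 (standard error; edgeR adjusted p = 0.00966). Igfbp6 (ENSMUSG00000023046, chromosome 15, 102144362 to 102149511, plus strand), which prefers IGF2 over IGF1, had 427 and 421 CPM with Trps1 siRNA, against 522 and 484 CPM with Negative siRNA. Its log2 fold change was -0.25 ± 0.06 (standard error; edgeR adjusted p = 0.00809). Igfbp2 (ENSMUSG00000039323, chromosome 1, 72824503 to 72852474, plus strand), a binding protein that also has an integrin-binding sequence, had 314 and 315 CPM with Trps1 siRNA, against 368 and 369 CPM with Negative siRNA. The samples of each group were nearly equal, and the log2 fold change was -0.23 ± 0.06 (standard error; edgeR adjusted p = 0.00912). No overlap between groups was seen for any of the 3, with the narrowest gap in Igfbp6, whose higher Trps1 siRNA sample reached 88.3% of the lower control sample.

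Trps1 belongs to the GATA family of zinc fingers, so promoter windows were searched for GATA hexamers. The windows run from 250 bases before to 50 after the start of each gene, from RefSeq for GRCm38.p6, and were found for 9 of the 10 genes (10 windows, 2 of them of Igfbp2); Pappa had none. The words were AGATAA, then AGATAG, also TGATAA and finally TGATAG on both strands, and TATAAA on the gene's strand; the only overlapping matches in these windows were those of AGATAG in Igf1. A GATA word was present in 2 of the 10 windows, those of Igf1 and Igfbp6, and in 29.8% of 32851 windows of all genes. TATAAA was present in that of Igfbp4 alone and in 8.32% of all windows. The windows of Igfbp4 and Igfbp6 are shown because both genes fell and the words differ, with GATA words and TATAAA in capitals, 5′ to 3′ on the gene's strand. Both GATA words of Igfbp6 are on the opposite strand and so appear as their reverse complements.
Igfbp4 promoter, chr11:99040994-99041293, plus strand: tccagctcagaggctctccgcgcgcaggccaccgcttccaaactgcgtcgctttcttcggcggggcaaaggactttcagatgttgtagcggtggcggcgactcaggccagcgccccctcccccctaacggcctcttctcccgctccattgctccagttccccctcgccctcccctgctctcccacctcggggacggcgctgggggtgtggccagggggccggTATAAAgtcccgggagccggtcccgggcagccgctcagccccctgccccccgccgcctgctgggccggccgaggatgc
Igfbp6 promoter, chr15:102143936-102144235, plus strand: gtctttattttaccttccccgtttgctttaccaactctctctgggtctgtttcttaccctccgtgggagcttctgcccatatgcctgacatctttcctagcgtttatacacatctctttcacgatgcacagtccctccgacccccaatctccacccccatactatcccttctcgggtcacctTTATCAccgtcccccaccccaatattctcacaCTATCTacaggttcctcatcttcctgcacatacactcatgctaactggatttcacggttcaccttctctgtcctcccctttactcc
The Igfbp6 window lies wholly before the start that the GENCODE annotation gives for the gene. The windows of Igfbp2 and Igfbp3, which also fell, held no GATA word of this kind. A match here is a description of letters and not a binding site.

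These 3 calls rested on more than 1 condition of the analysis. Without sample 1 of Negative siRNA, Igfbp2, Igfbp3 and Igfbp6 all lost the call (edgeR adjusted p = 0.0544, 0.148 and 0.155), so that Igfbp4 alone remained. Igfbp2 also lost it without sample 2 of Negative siRNA (adjusted p = 0.0664) and Igfbp3 without sample 2 of Trps1 siRNA (adjusted p = 0.0988). The transcripts of Igfbp2 and Igfbp6 are rich in G and C (62.1% and 60.7%, beside a median of 49.7% over the features tested). With offsets for GC content and exon length their log2 fold changes were -0.16 and -0.18 and the calls were lost (edgeR adjusted p = 0.0570 for each), whereas Igfbp3 and Igfbp4 remained called. The plot of fold changes by processing shows these cases as open points.

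**Figure D2:**
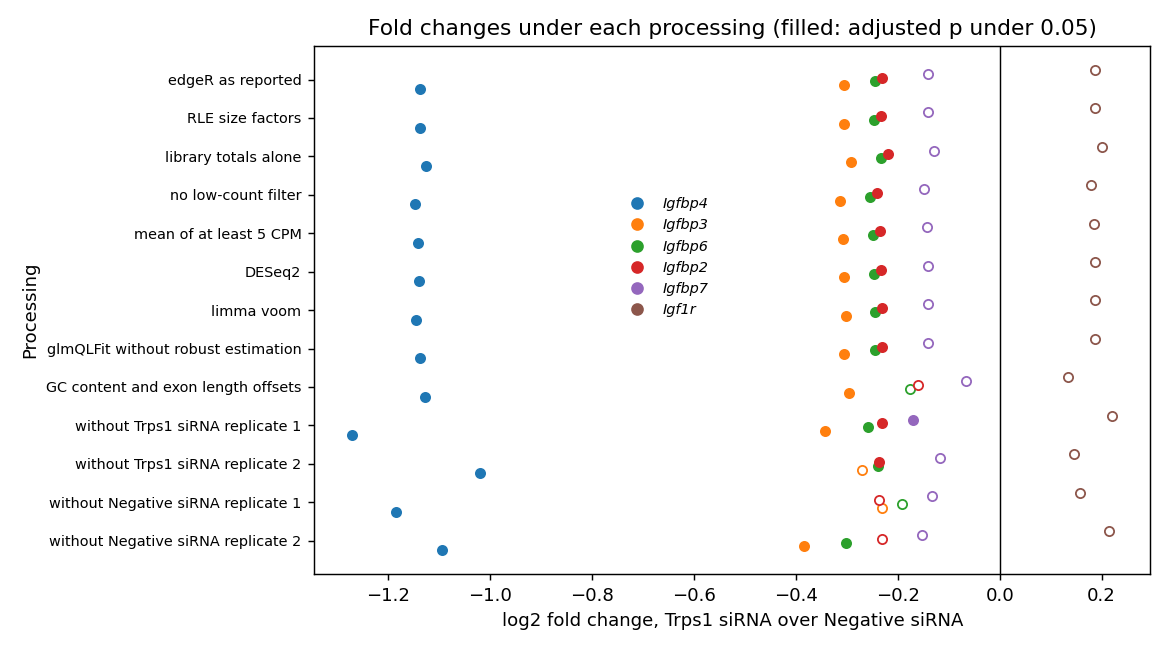
Log2 fold changes (Trps1 siRNA over Negative siRNA, horizontal axis) of 5 binding protein genes and Igf1r by processing (vertical axis). Filled points have an adjusted p under 0.05. The fit with the replicate block, which pairs same-numbered samples, is not shown. In that fit Igf1r and Igfbp7 passed the test (edgeR adjusted p = 0.0379 and 0.0371). Igfbp4 lies between -1.27 and -1.02 and is filled in every fit shown. Igfbp2, Igfbp3 and Igfbp6 lie between -0.38 and -0.16 and are open in some fits.

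Igfbp7 and Igfbp5 did not pass the test. Igfbp7 (ENSMUSG00000036256, chromosome 5, 77349240 to 77408041, minus strand) encodes a secreted protein of the vessel wall and stroma that binds IGFs weakly. It had 2260 and 2177 CPM with Trps1 siRNA, against 2463 and 2429 CPM with Negative siRNA, without overlap. Its log2 fold change was -0.14 ± 0.06 (standard error; edgeR adjusted p = 0.109), and -0.065 with the GC content and exon length offsets. It passed the test without sample 1 of Trps1 siRNA (adjusted p = 0.0256). An exon of Polr2b on the opposite strand shares 85 bases with Igfbp7. Igfbp5 (ENSMUSG00000026185, chromosome 1, 72857932 to 72874884, minus strand), which binds to extracellular matrix, had 7.28 and 6.67 CPM with Trps1 siRNA, against 7.06 and 5.78 CPM with Negative siRNA, with overlap. Its log2 fold change was 0.12 ± 0.17 (standard error; edgeR adjusted p = 0.727) and changed sign, to -0.023, without sample 2 of Negative siRNA. Igfbp1, which lies 3539 bases from Igfbp3, had 0 reads in all 4 libraries, which allows up to 0.168 CPM in the shallowest library.

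Summed over the 6 IGFBPs, the level was 7643 ± 116 TPM with Trps1 siRNA and 8659 ± 286 TPM with Negative siRNA, a ratio of 0.883 (SD, n = 2 each). Without Igfbp7 the sum was 1907 ± 13.02 TPM with Trps1 siRNA and 2376 ± 109 TPM with Negative siRNA, a ratio of 0.803. Igfbp7 alone made up 75.0% ± 0.209 of the 6-gene sum with Trps1 siRNA and 72.6% ± 0.351 with Negative siRNA (SD, n = 2 each). The share of Igfbp4 was 1.73% ± 0.174 with Trps1 siRNA and 3.35% ± 0.199 with Negative siRNA, so that the groups lay farther apart than their spread. The shares of Igfbp6 (15.6% with Trps1 siRNA, 16.2% with Negative siRNA) and Igfbp2 (6.96% with Trps1 siRNA, 7.16% with Negative siRNA) lay closer together. These sums count mRNA and carry no test.

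Pappa, the protease that cuts IGFBP4 (ENSMUSG00000028370, chromosome 4, 65124174 to 65357509, plus strand), was near the limit of detection. It had 10 and 19 reads with Trps1 siRNA, against 9 and 3 reads with Negative siRNA, or 0.560 and 0.874 CPM against 0.448 and 0.117 CPM. The log2 fold change of 1.43 ± 0.65 did not pass the test (standard error; edgeR adjusted p = 0.174) and ranged from 0.69 to 2.57 with a sample left out, so a difference was not detectable at this depth. Pappa2, a related protease that cuts IGFBP5 and IGFBP3, had 0.672 and 0.552 CPM with Trps1 siRNA, against 0.696 and 0.625 CPM with Negative siRNA. The secreted protease Htra1, known to cut IGFBPs among other proteins, was abundant and nearly level, at 1829 and 1827 CPM with Trps1 siRNA, against 1750 and 1813 CPM with Negative siRNA (log2 fold change 0.04 ± 0.06, not past the test).

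Both stanniocalcins, the inhibitors of pappalysin, rose. Stc1 had 628 and 666 CPM with Trps1 siRNA, against 526 and 572 CPM with Negative siRNA (log2 fold change 0.24 ± 0.06, standard error; edgeR adjusted p = 0.0130). Stc2 had 157 and 173 CPM with Trps1 siRNA, against 122 and 147 CPM with Negative siRNA (log2 fold change 0.29 ± 0.07, standard error; edgeR adjusted p = 0.0165). The groups did not overlap for either gene, and both calls were lost without sample 1 of Negative siRNA (adjusted p = 0.225 for Stc1 and 0.258 for Stc2) and without sample 2 of Trps1 siRNA (0.104 and 0.273). The call of Stc2 was also lost with the GC content and exon length offsets (0.117). Igf2bp2, an RNA-binding protein named for its binding to Igf2 mRNA, fell to 67.8%, with 19.9 and 20.8 CPM with Trps1 siRNA, against 30.8 and 29.2 CPM with Negative siRNA (edgeR adjusted p = 0.000226). Of 14 other genes of the IGF family 7 were tested, of which 2 rose and 1 fell. Of the other members Igf2bp3 did not pass the test, at 1.13 to 1.43 CPM, and Insrr, Igfals, Igfbpl1, Prg2 and Igf2bp1 had at most 3 reads in any library.

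**Figure D3:**
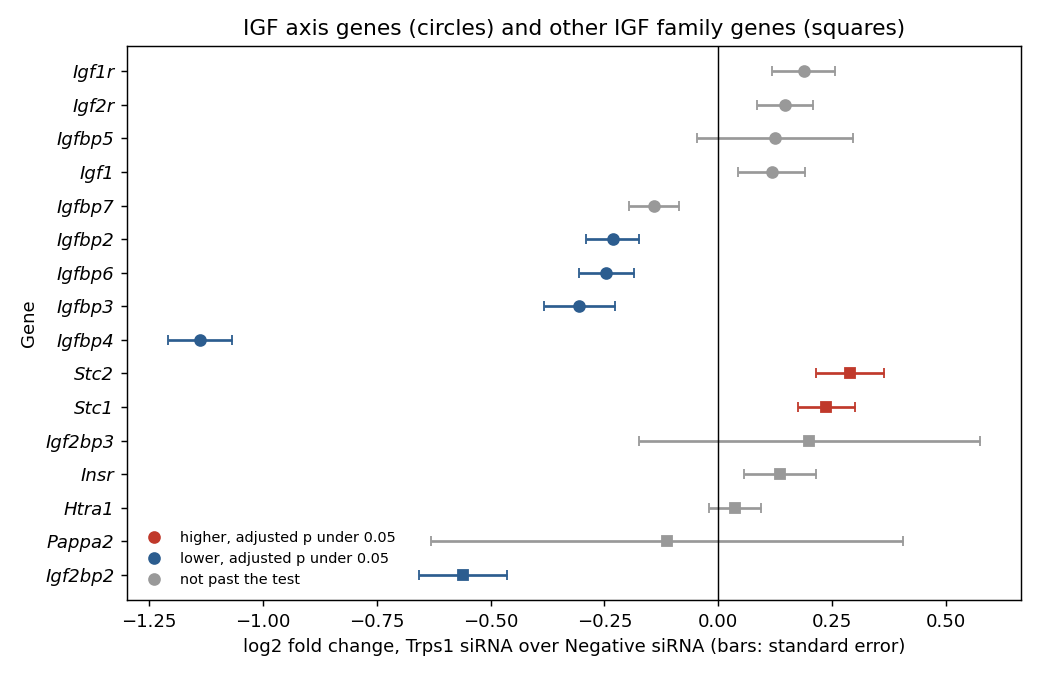
Log2 fold changes of 9 IGF axis genes (circles, without Pappa) and 7 tested genes of the wider IGF family (squares), Trps1 siRNA over Negative siRNA, with standard errors from edgeR; blue is lower and red higher at an adjusted p under 0.05. Igfbp4 stands at -1.14, the other axis genes between -0.31 and 0.19, Igf2bp2 at -0.56, and Stc1 and Stc2 at 0.24 and 0.29.

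Around and past the receptors, most genes did not pass the test: of 61 tested genes in the lists for the wider IGF family, adaptors, PI3K and mTOR, FOXO and MAPK, 5 rose, 4 fell and 52 did not pass it, and their median log2 fold change was 0.05. Over all features tested, 5.24% were called higher and 6% lower, the shares to set beside this count and that of each list. The wider IGF family, supplied 7 of the tested genes, 2 of the rises and 1 of the falls. The number that rose was 1 without sample 1 of Negative siRNA, 3 without sample 2 of Negative siRNA, 1 without sample 2 of Trps1 siRNA and 3 with DESeq2. The number that fell was 2 without sample 2 of Trps1 siRNA. Grb10, an adaptor that binds the active insulin and IGF receptors and dampens their signal, showed the largest rise among them. It had 103 and 121 CPM with Trps1 siRNA, against 73.7 and 69.8 CPM with Negative siRNA (log2 fold change 0.65 ± 0.07, standard error; edgeR adjusted p = 6.98e-07), and it was the only one of 10 tested receptor adaptors that passed the test. The insulin receptor substrates Irs1 and Irs2 had log2 fold changes of 0.22 and 0.05, neither past the test.

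In the PI3K and mTOR list, 2 of 22 genes fell and 1 rose. Rptor, the scaffold of mTOR complex 1, had 50.02 and 50.5 CPM with Trps1 siRNA, against 68.9 and 68.2 CPM with Negative siRNA (log2 fold change -0.45 ± 0.07, standard error; edgeR adjusted p = 7.49e-05). Pik3cd, a PI3K catalytic subunit best known from leukocytes, fell to 75.2% (edgeR adjusted p = 0.0146). It was not called with DESeq2 (adjusted p = 0.0605), and its log2 fold change of -0.41 became -0.26 without sample 2 of Trps1 siRNA. Macrophage markers fell in the same libraries, and the part of macrophages in the Pik3cd level was not tested. Mlst8, a subunit of both mTOR complexes, lay at the threshold (log2 fold change 0.41 ± 0.13, standard error; edgeR adjusted p = 0.0497) and was lost with DESeq2 (0.178), voom (0.0611), no low-count filter (0.0569), no robust estimation (0.0656) and any sample left out. Akt1, Akt2 and Mtor had log2 fold changes of 0.05, -0.07 and 0.05, none past the test.

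Of 12 FOXO factors and genes known to respond to them, Foxo3 rose to 116% of the control, at 117 and 122 CPM with Trps1 siRNA, against 102 and 103 CPM with Negative siRNA (edgeR adjusted p = 0.0122), and the other 11 did not pass the test. Of 10 RAS and MAPK genes, Mapk3, which encodes the kinase ERK1, fell to 86.7%, at 176 and 165 CPM with Trps1 siRNA, against 195 and 198 CPM with Negative siRNA (edgeR adjusted p = 0.0206). The call of Foxo3 was lost with DESeq2 (adjusted p = 0.0574), without sample 2 of Trps1 siRNA (0.143) and without sample 1 or 2 of Negative siRNA (0.118 and 0.0848). That of Mapk3 was lost with the GC content and exon length offsets (0.0863), without sample 2 of Trps1 siRNA (0.191) and without sample 1 or 2 of Negative siRNA (0.0827 and 0.141).

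**Figure D4:**
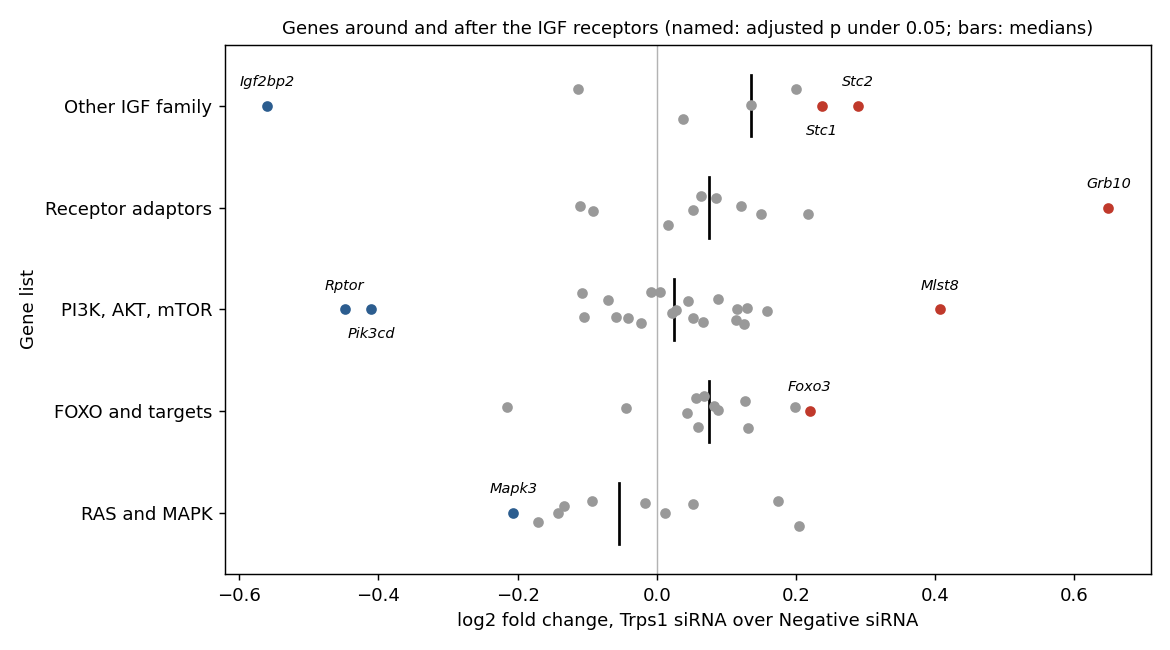
Log2 fold changes (Trps1 siRNA over Negative siRNA, horizontal axis) of tested genes in 5 lists around the IGF receptors (vertical axis); grey points did not pass the test, named points did, and black bars are list medians. Grb10 at 0.65 and Igf2bp2 at -0.56 stand farthest from 0, and the list medians lie between -0.05 and 0.14.

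The 3' UTR words searched in Igfbp4 were also present in several of these called genes. Their matches are given in the same way as that of Igfbp4, to set the words beside the direction of each gene.
Igf2bp2, exon 16, chr16:22059372-22059379, minus strand: taataaaaatGAGTTGAAaaaaaaaaaa
Rptor, exon 33, chr11:119899321-119899328, plus strand: accaaaatgaGAGTTGAAaggactgaca
Grb10, exon 16, chr11:11933413-11933419, minus strand: gacactggaaCGGAGAAgagagatctg
Stc1, exon 4, chr14:69039212-69039218, plus strand: tcttaaaaaaCGGAGAAtcttaaggtc
Igf2bp2 and Rptor, which fell, held the whole 8-base word GAGTTGAA. Grb10 and Stc1, which rose, held CGGAGAA. Stc1 also held GAGTTGA, a match not printed above. Most of the genes with a word were not called, and 11.2% of all features tested were called. Of 6 genes of these lists with CGGAGAA 2 rose and 0 fell, and Ptpn1, Foxo1, Braf and Map2k2 did not pass the test. Of 15 genes with GAGTTGA, axis genes included, 3 fell and 1, Stc1, rose, while Igf2bp1 and Irs4 were not tested. Of 15 with AGTTGAA 2 fell and 0 rose, and Igf2bp1 was not tested. Over all tested genes with GAGTTGA 13.9% were called lower and 3.27% higher, and with AGTTGAA 10.7% lower and 4.17% higher. Of 5 with GAGTTGAA 2 fell, while Sos1 and Rps6kb2 did not pass the test and Igf2bp1 was not tested. Over all tested genes with GAGTTGAA 18.1% were called lower and 3.48% higher, and with CGGAGAA 4.44% lower and 14.5% higher. The part of these matches in the values was not tested.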

How the data were processed

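RNA-seq of total RNA was carried out on 4 samples of primary mouse Leydig cells. The authors deposited raw read counts per gene; HISAT2, featureCounts and GRCm38 (mm10) are named, per the submitters' processing notes, without versions. For read length, strandedness and the handling of reads with several matches, nothing is stated. A second deposited table, of 780 genes, holds per the file headers a mean count signal per group, log2 fold changes, p-values and adjusted p-values; which test gave them is not stated, and the log2 values are Trps1 siRNA over Negative siRNA.

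Samples were grouped by their titles. Symbols, positions and lengths came from GENCODE M21 (55141 features with a symbol). Counts were tested with edgeR 4.0.16 (R 4.3.3): TMM, filterByExpr (minimum count 10), then glmQLFit (robust) followed by glmQLFTest, with group as the only term and 2 residual degrees of freedom; adjusted p-values are Benjamini-Hochberg over all tested features. Standard errors are the log2 fold change over the square root of F. The replicates of each group differed by more than sampling noise (mean chi-square per gene 4.56 with Trps1 siRNA and 7.58 with Negative siRNA). TPM used union exon lengths. The fit was tested on simulated counts. Alternatives were RLE factors, library totals, 2 other filters, DESeq2 1.42.0, limma 3.58.1 voom, no robust estimation, a replicate block, offsets for GC content and length (loess, span 0.3), and each sample left out. The members, lists and 3' UTR words were chosen with earlier results of these data known; 2 genes of the PI3K and mTOR list are not reported here and were taken out of its counts after their values were seen. All 10 members, Trps1, the members of the wider IGF family list and called members of the other pathway lists were named by rule. Star, Insl3, Irs1, Irs2, Akt1, Akt2, Mtor and the gene names given for 3' UTR matches were added after their values were seen. Same-numbered samples of the 2 groups did not deviate together (correlation 0.0165).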

Additional observations from a re-analysis of the deposited data

How the results depend on the processing

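The count of IGF axis genes called lower was 4, and stayed at 4 with DESeq2, voom, RLE factors, unscaled library totals, either other filter and no robust estimation. It was 2 with the GC content and exon length offsets and between 1 and 5 with a sample left out. Igfbp4 kept its call in all 13 other fits. With the offsets the log2 fold changes of Igfbp2 and Igfbp6 were -0.16 and -0.18, no longer past the test. With a sample left out, log2 fold changes ranged from 0.0019 to 0.24 for Igf1, 0.15 to 0.22 for Igf1r, 0.11 to 0.18 for Igf2r, 0.69 to 2.57 for Pappa, -0.24 to -0.23 for Igfbp2, -0.38 to -0.23 for Igfbp3, -0.30 to -0.19 for Igfbp6, -0.17 to -0.12 for Igfbp7 and -0.023 to 0.27 for Igfbp5, the last with its sign turned at -0.023. The labels do not say whether same-numbered samples of the 2 groups are paired. The fit with the replicate block called 1 axis gene higher, Igf1r at 0.19, and Igfbp7 lower at -0.14, and changed no other call among the axis genes. Over all features that fit called 1073 higher and 1212 lower, against 770 and 882 without the block.

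Over all features DESeq2 called 438 higher and 553 lower, against 770 and 882 in edgeR, and with a sample left out the counts ranged from 395 to 748 higher and from 476 to 927 lower, lowest without sample 2 of Trps1 siRNA. Of the other pathway genes, 5 were higher and 4 lower; DESeq2 called 3 higher, and with a sample left out 1 to 5 were higher and 2 to 4 lower. The TPM of 5 of the 10 axis genes moved by more than 1 SD with the longest transcript as length. The causes were not tested. Pappa did not reach the filter of 5 CPM, and depth limits Pappa, Igfbp5 and Igf2.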
